A study of Mus musculus with 9 samples.

Results

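Myeloid cells take their identity from a small set of transcription factors, and 9 of these were followed in mouse splenic monocytes: Spi1, Cebpa, Cebpb, Cebpd, Maf, Zeb2, Runx1, Gfi1 and Bcl6. They were chosen by gene symbol, as known regulators and by no threshold on their values, out of 46072 genes measured, of which 26108 were detected in at least 1 library. Each symbol had 1 row, and each of the 9 genes was detected.

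Monocytes came from the spleens of female C57BL/6 mice aged 8 to 10 weeks, 3 mice in each of 3 groups, and were isolated by magnetic removal of other cells and sequenced without further stimulation. Con mice were gavaged with water. Van mice were gavaged with vancomycin, an antibiotic largely retained in the gut, receiving 2 mg daily for 6 days, followed by days without antibiotic. VanLip mice received the same vancomycin and then L654, a serine-glycine lipid of gut bacteria recognised by the receptor TLR2, injected behind the eye. The study's methods describe saline (PBS) injections as the control for L654, whereas the labels say that mice without L654 received none, so whether the sequenced Con and Van mice were injected was not settled by these sources. All 3 groups were of the same strain, and each difference is one between treatments of the whole animal, in cells taken some days after the last gavage.

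Spi1 encodes PU.1, which opens the enhancers of myeloid genes in concert with the C/EBP family of bZIP factors. C/EBPα, the product of Cebpa, drives progenitors toward granulocytes and monocytes and slows the cell cycle, whereas C/EBPβ and C/EBPδ are raised by inflammatory signals and C/EBPβ sustains the patrolling Ly6C-low monocyte. Runx1 sets up the myeloid programme upstream of Spi1, Zeb2 supports the monocyte fate, Maf restrains self-renewal and is abundant in tissue macrophages, and Gfi1 and Bcl6 are repressors, Gfi1 favouring the neutrophil fate and Bcl6 opposing inflammatory target genes.

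The sequence upstream of 3 members is shown because the results turn on them: Cebpa and Runx1, which differed between groups, and Cebpb, the close relative of Cebpa, whose groups overlapped. The windows hold the 250 bases before the annotated start in RefSeq (GRCm38.p6), 5′ to 3′ on the strand of the gene, and capitals mark a motif searched on both strands. Cebpa lies at chr7:35119293-35121928 on the plus strand, Cebpb at chr2:167688915-167690418 on the plus strand as a gene of 1 exon, and Runx1 at chr16:92601466-92826149 on the minus strand with a distal and a proximal start. The windows are chr7:35119043-35119292 for Cebpa, chr2:167688665-167688914 for Cebpb, and chr16:92826075-92826324 and chr16:92697330-92697579 for the distal and proximal starts of Runx1.
Cebpa: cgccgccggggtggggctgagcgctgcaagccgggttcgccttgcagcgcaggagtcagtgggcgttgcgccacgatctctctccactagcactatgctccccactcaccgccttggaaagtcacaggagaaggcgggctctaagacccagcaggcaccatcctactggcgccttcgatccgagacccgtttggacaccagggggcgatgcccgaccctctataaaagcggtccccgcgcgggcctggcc
Cebpb: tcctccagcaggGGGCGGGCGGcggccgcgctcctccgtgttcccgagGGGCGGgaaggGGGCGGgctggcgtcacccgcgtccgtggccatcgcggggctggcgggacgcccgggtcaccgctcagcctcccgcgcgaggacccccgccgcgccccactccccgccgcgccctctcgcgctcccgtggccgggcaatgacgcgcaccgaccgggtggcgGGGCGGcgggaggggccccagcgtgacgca
Runx1 distal: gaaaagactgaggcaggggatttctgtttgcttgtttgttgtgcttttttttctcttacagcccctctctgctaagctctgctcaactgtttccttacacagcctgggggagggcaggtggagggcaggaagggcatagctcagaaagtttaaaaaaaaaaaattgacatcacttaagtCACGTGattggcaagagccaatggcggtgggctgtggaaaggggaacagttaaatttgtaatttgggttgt
Runx1 proximal: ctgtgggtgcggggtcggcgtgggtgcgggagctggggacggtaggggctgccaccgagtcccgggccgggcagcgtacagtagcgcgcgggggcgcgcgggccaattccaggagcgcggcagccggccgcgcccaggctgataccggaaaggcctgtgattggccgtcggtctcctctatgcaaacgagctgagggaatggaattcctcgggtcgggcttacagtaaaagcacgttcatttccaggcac

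The letters searched were TTGCNNAA for C/EBP, TGTGGT for RUNX, GAGGAAG for PU.1, CACGTG for the E-box and GGGCGG for Sp1. The Cebpb window held GGGCGG 5 times, overlapping in one place, and 32.7% of all 32851 RefSeq windows of the same length held it. The distal Runx1 window held CACGTG once, against 6.02% of all windows. No letters searched were in the Cebpa window or in the proximal Runx1 window. C/EBP letters were in 9.56%, RUNX letters in 14.0% and PU.1 letters in 10.6% of all windows. The Cebpa window was 66.4% G or C, the Cebpb window 81.6%, the distal Runx1 window 45.6% and the proximal 67.6%. Of the other members, Zeb2, Gfi1 and Bcl6 had an upstream entry and Spi1, Cebpd and Maf had none.

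The 9 libraries differed in ways that touch every comparison with VanLip. Expected counts totalled 170503470 to 184720704 per VanLip library but 43070361 to 61383806 in each of the 6 others. In Con and Van 1 read added 1.33 to the count but in VanLip 2.00, although a single read length was stated for the series. Divided by that size, the totals were 85251735 to 92360352 reads per VanLip library and 32302770 to 46037855 in each of the 6 others. Depth and the size of a read coincided with the VanLip group and cannot be told apart from the treatment. Van against Con was free of that difference. Monocyte markers made up the bulk of the marker signal, with all 10 above 0 and a summed level of 9680 to 10410 FPKM in Con, 8208 to 10240 in Van and 9816 to 11710 in VanLip. Lyz2 alone gave most of this sum, and such a sum does not measure a share of cells. FPKM is fragments per kilobase of transcript after scaling for library depth, and is thus a level per length. All 6 red pulp macrophage markers were above 0 too, summing to 1022 to 1247 FPKM in Con, 1173 to 1614 in Van and 1034 to 1289 in VanLip. Erythroid markers summed to 56.9 to 115 FPKM in Con, 189 to 430 in Van and 155 to 640 in VanLip, and 3 of 5 were called higher in Van and 5 of 5 in VanLip, each against Con (edgeR 0 and 3). Neutrophil markers summed to 13.4 to 36.8 FPKM over the 9 libraries, with the defining gene Ly6g at 0 in each and 1 of 7 called lower in VanLip than in Con (edgeR 0). Conventional dendritic cell markers summed to 31.4 to 46.6 FPKM in Con, 30.4 to 39.9 in Van and 24.1 to 37.1 in VanLip, with 2 of 5 called lower in Van and 2 of 5 in VanLip against Con (edgeR 1 and 0). Plasmacytoid dendritic cell markers summed to 6.06 to 15.4 FPKM over the libraries, with 1 of 5 called lower in Van than in Con (edgeR 0). In VanLip against Van 1 of 5 markers of each dendritic type was called higher (edgeR 0 for both). The part of these cells in the results was not tested. As the RNA was from bulk cells, fewer cells of a type and less RNA per cell cannot be told apart.

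By mean FPKM over the 9 libraries the members ran from Cebpb at 352.5 and Spi1 at 306.0, through Zeb2 at 69.2, Bcl6 at 54.7, Cebpa at 48.3, Cebpd at 24.4, Runx1 at 20.3 and Maf at 15.2, to Gfi1 at 0.139. Cebpb and Spi1 stood at the 99.4th and 99.2nd percentile of detected genes and Gfi1 at the 38.5th. Several neighbours in this order were not apart, since the ranges of Cebpb and Spi1, Zeb2 and Bcl6, Bcl6 and Cebpa, Cebpd and Runx1, and Runx1 and Maf overlapped. The order of each pair nonetheless held within most libraries: Cebpb exceeded Spi1 in 8 of 9 and Zeb2 exceeded Bcl6 in 7 of 9. The order depended on the group for Bcl6 and Cebpa, since Bcl6 was above Cebpa in Con and VanLip, whereas in Van the mean of Cebpa was 64.2 and that of Bcl6 51.0 FPKM. Transcripts of PU.1 and C/EBPβ were thus well above those of the other members in level per length, and those of Gfi1 were far below.

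**Figure D1:**
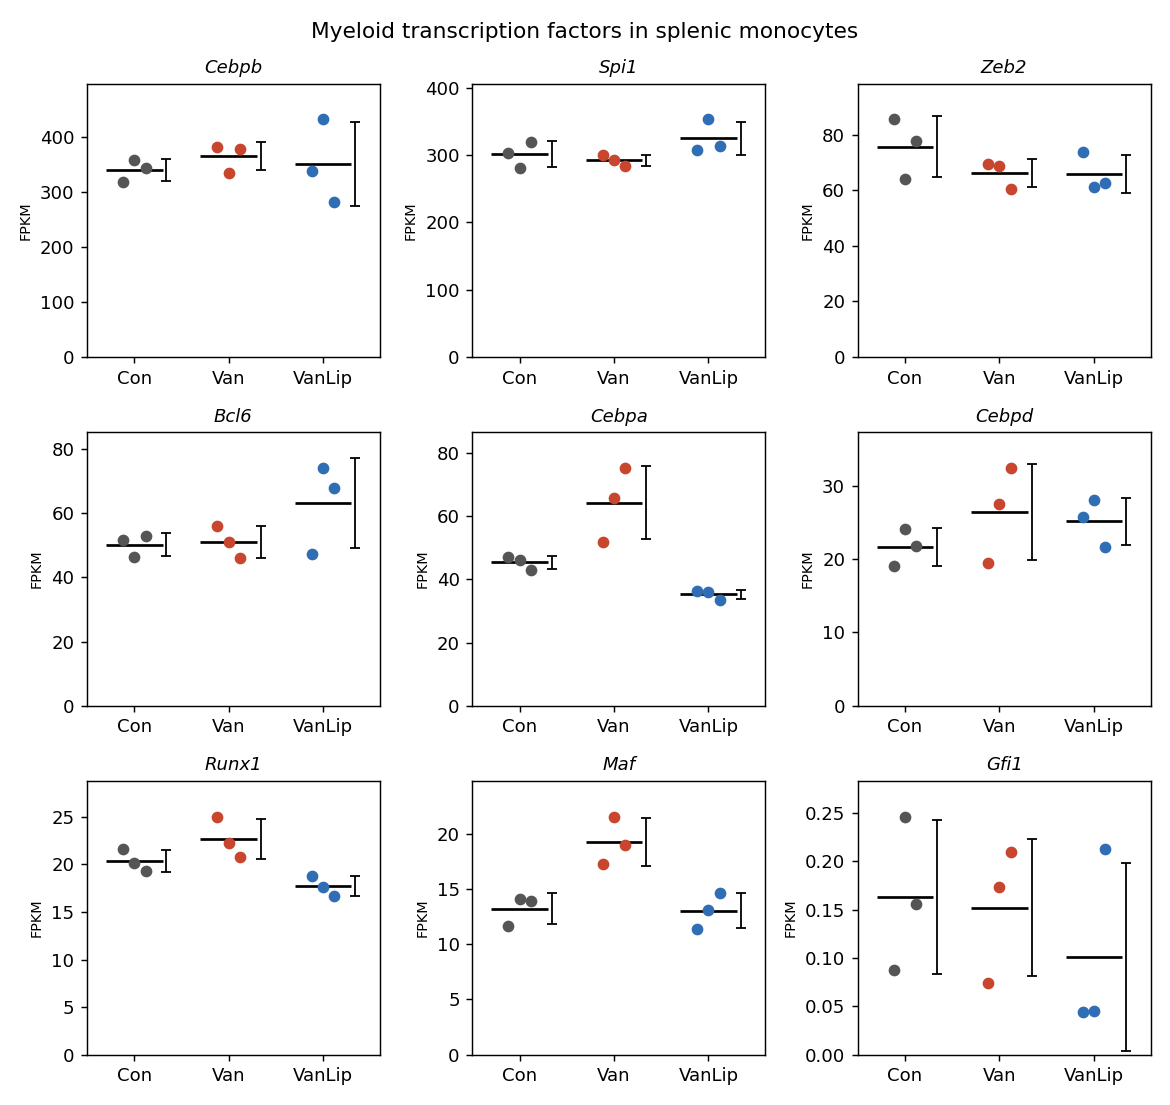
FPKM (vertical axis, from 0) of the 9 members in the Con, Van and VanLip groups. Points are libraries, lines are group means and bars are the SD (n = 3). Cebpa is highest in the 3 Van and lowest in the 3 VanLip libraries, Maf is highest in the 3 Van libraries, and Spi1 overlaps across the groups between 281 and 353.

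The first comparison, Van against Con, set mice gavaged with vancomycin and then rested beside those gavaged with water. Cebpa and Maf were higher after vancomycin, and the other 7 members were not called. A gene was called at a Benjamini-Hochberg adjusted p of 0.05 or under in the DESeq2 Wald test on expected counts, and by that rule 2 of 9 members were called, both higher, against 4.33% of all genes tested (2.27% higher and 2.06% lower). The median log2 fold change was 0.09 over the members and -0.01 over all genes tested. Normalized counts of the groups did not overlap for 3 of 9 members, Cebpa, Maf and Runx1, against 20.8% of all genes. With the quasi-likelihood test of edgeR 0 of 9 members were called, against 1.21% of all genes, and at an unadjusted p under 0.05 DESeq2 gave 2, against 14.9% of all genes.

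Cebpa, the driver of the granulocyte and monocyte fate, was at 46.9, 46.1 and 42.9 FPKM in Con and at 51.9, 65.7 and 75.1 FPKM in Van. Every Van library lay above every Con library, and the Van libraries were the more spread. The fold change was 1.4, a log2 value of 0.49 ± 0.12 (SE) with a 95% interval of 0.25 to 0.73 and an adjusted p of 0.00326 with DESeq2. The call was lost with edgeR (adjusted p = 0.0785), with limma on log2 FPKM, and without Con replicate 3 (log2 0.44, adjusted p = 0.0543).

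Maf, the macrophage-associated bZIP factor, was at 11.6, 14.1 and 13.9 FPKM in Con and at 17.2, 21.5 and 19.0 FPKM in Van. The groups were apart, with the lowest Van library above the highest Con library. The fold change was 1.45, a log2 value of 0.53 ± 0.12 (SE) with a 95% interval of 0.30 to 0.76 and an adjusted p of 0.000583 with DESeq2. The call was kept whichever library was left out, and was lost with edgeR (adjusted p = 0.0541) and with limma (adjusted p up to 0.184).

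Runx1 was at 21.6, 20.2 and 19.3 FPKM in Con and 25.0, 22.3 and 20.8 FPKM in Van. Its FPKM ranges overlapped although its normalized counts did not, and the log2 difference of 0.13 (95% interval -0.02 to 0.28, DESeq2 adjusted p = 0.44) was not called. Spi1 was at 303, 281 and 320 FPKM in Con and 299.8, 293 and 283 FPKM in Van. Its log2 difference of -0.01 had an interval of -0.17 to 0.14, so a change of the size seen for Cebpa lay outside it. Zeb2 was bounded nearly as closely, with an interval of -0.26 to 0.11. Cebpb, with an interval of -0.17 to 0.35, and Cebpd, with one of -0.06 to 0.62, were bounded less tightly, and for Cebpd a rise as large as that of Cebpa remained within the interval.

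**Figure D2:**
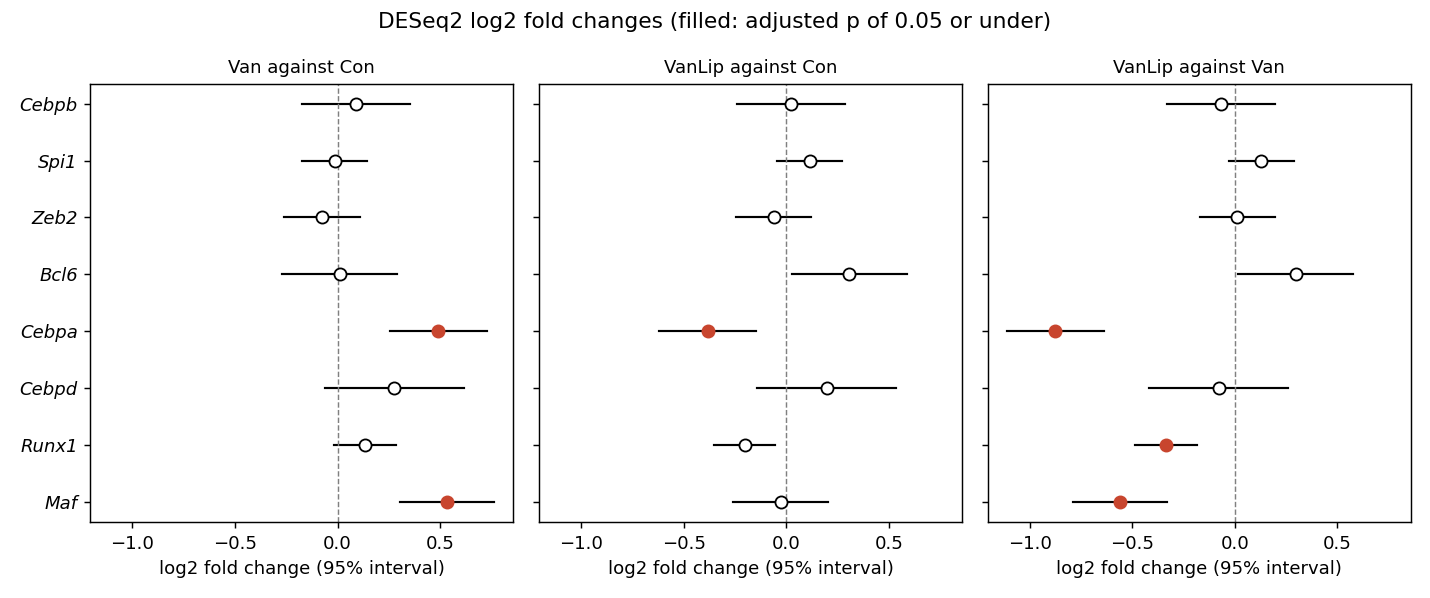
DESeq2 log2 fold changes (horizontal axis) of 8 members with their 95% intervals in the 3 comparisons, with filled points at an adjusted p of 0.05 or under. Gfi1 is left out because its intervals span several log2 units. Filled points mark Cebpa and Maf at 0.49 and 0.53 for Van against Con, Cebpa at -0.38 for VanLip against Con, and Cebpa, Maf and Runx1 at -0.87, -0.56 and -0.33 for VanLip against Van.

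VanLip against Van, the second comparison, asked what followed when the bacterial lipid was given after vancomycin. Cebpa, Maf and Runx1 were lower in VanLip, and no member was called higher. The 3 of 9 members called compare with 9.85% of all genes tested (4.58% higher and 5.27% lower), and the same number was called with edgeR, against 5.07% of all genes. At an unadjusted p under 0.05 there were 4 of 9, against 20.9% of all genes. Over all genes 826 were higher and 951 lower, and with TMM library sizes 1013 were higher and 809 lower, while the 3 members remained lower. The median log2 fold change was -0.07 over the members and 0.01 over all genes. Groups did not overlap for 3 of 9 members, against 25.9% of all genes. This comparison shares the Van libraries with Van against Con, so that a library high in Van enters both, and the values are given side by side only.

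Cebpa was at 36.2, 35.9 and 33.5 FPKM in VanLip, against 51.9 to 75.1 FPKM in Van. The VanLip libraries lay close together and all below the Van libraries. The fold change was 0.546, a log2 value of -0.87 ± 0.12 (SE) with a 95% interval of -1.11 to -0.64 and an adjusted p of 8.45e-11 with DESeq2 (edgeR adjusted p = 0.00327). This was the one member called in each of the 20 alternatives run for it, with an adjusted p of at most 0.0316.

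Maf was at 11.4, 13.1 and 14.6 FPKM in VanLip, below each Van library, with a log2 value of -0.56 ± 0.12 (SE) and an adjusted p of 8.01e-05 with DESeq2 (edgeR adjusted p = 0.0213). Runx1 was at 18.8, 17.6 and 16.7 FPKM in VanLip, also below each Van library, with a log2 value of -0.33 ± 0.08 (SE) and an adjusted p of 0.000446 with DESeq2 (edgeR adjusted p = 0.024). Both calls held whichever library was left out. Both were lost with limma at pseudocounts of 1 and 0.1, where adjusted p reached 0.0764 for Maf and 0.0947 for Runx1.

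VanLip against Con, the third comparison, set the animals given vancomycin and lipid beside those given water. Cebpa was the 1 of 9 members called, and it was lower, against 6.67% of all genes tested (2.98% higher and 3.69% lower). Over all genes the split was 494 higher and 611 lower, and with TMM library sizes 657 higher and 500 lower. With edgeR 0 of 9 were called, against 1.78% of all genes, and at an unadjusted p under 0.05 DESeq2 gave 3, against 18.6% of all genes. The log2 value of Cebpa was -0.38 ± 0.12 (SE), with an interval of -0.62 to -0.15 and an adjusted p of 0.0288 with DESeq2. The 3 VanLip libraries lay below the 3 Con libraries. The call was lost without Con replicate 1 (adjusted p = 0.166), Con replicate 2 (0.13), Van replicate 2 (0.0555), VanLip replicate 2 (0.0945) or VanLip replicate 3 (0.0889). It was also lost with TMM library sizes (0.0503), a replicate block (0.0613), edgeR (0.133) and the limma settings (0.123 to 0.24). The log2 value stayed between -0.48 and -0.35 over these and the other alternatives.

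Maf in VanLip overlapped Con, with a log2 difference of -0.03 and an interval of -0.26 to 0.20 that did not reach the 0.53 of Van. Runx1 was lower in the 3 VanLip than in the 3 Con libraries, the other member of the 2 of 9 whose groups did not overlap (23.5% of all genes). Its log2 value of -0.20 (interval -0.35 to -0.05, DESeq2 adjusted p = 0.0908) was not called, except without Con replicate 3 (log2 -0.25, adjusted p = 0.0458).

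Among the inflammation-responsive C/EBP genes, Cebpb was at 319, 359 and 345 FPKM in Con, 382, 336 and 378 in Van, and 338, 433 and 283 in VanLip. The VanLip libraries alone spanned the range of both other groups, and adjusted p was 0.866 or more in the 3 comparisons. Cebpd was at 19.0, 24.1 and 21.8 FPKM in Con, 19.4, 27.5 and 32.4 in Van, and 25.8, 28.0 and 21.7 in VanLip. It too overlapped in every comparison. Cebpb, a single exon of 67.2% G or C, lies in the 99.4th percentile of genes for that content. Corrected for GC content and transcript length, its log2 value for VanLip against Con moved from 0.02 to -0.25 and that for Van against Con from 0.09 to -0.08. The sign of the Cebpb difference thus turned with this correction, which was chosen after seeing the data.

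Zeb2 was at 85.5, 63.9 and 77.6 FPKM in Con, 69.3, 68.8 and 60.3 in Van, and 73.7, 61.1 and 62.7 in VanLip, with overlap throughout. Spi1 was at 308, 353 and 313 FPKM in VanLip, with log2 differences of 0.12 from Con (interval -0.04 to 0.27) and 0.13 from Van (interval -0.03 to 0.29). Spi1 varied least of the members by the ratio of its highest to its lowest library, a ratio that was 1.42 for Zeb2, 1.89 for Maf and 2.24 for Cebpa. Within groups, among the 8 members whose normalized count averaged 50 or more, which leaves out Gfi1, the log2 SD was smallest for Runx1 at 0.0795 and Spi1 at 0.0903, against a median of 0.144 over all 13503 genes compared, and largest for Cebpd at 0.257.

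The repressor Bcl6 was at 51.6, 46.2 and 52.8 FPKM in Con, 55.9, 51.1 and 45.9 in Van, and 47.3, 74.0 and 67.8 in VanLip. VanLip replicates 2 and 3 lay above the 6 other-group libraries and VanLip replicate 1 among them. The log2 difference of 0.31 from Con (DESeq2 adjusted p = 0.209) and 0.30 from Van (adjusted p = 0.202) was not called. Without VanLip replicate 1 both were called, at 0.47 (adjusted p = 0.000269) and 0.46 (adjusted p = 0.000258). That library also had the lowest erythroid sum of the VanLip group (155 FPKM against 640 and 603) and the lowest red pulp macrophage sum (1034 against 1242 and 1289). Its monocyte sum was the highest of that group (11710 against 9816 and 9946). So were its neutrophil, granulocyte progenitor and conventional dendritic cell sums. The part of this library and of these sums in the result was not tested.

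The other repressor, Gfi1, was near the floor of detection. Its expected counts were 15.5 to 137.7 per library. It was at 0.0876, 0.246 and 0.156 FPKM in Con, 0.0739, 0.173 and 0.210 in Van, and 0.0437, 0.0452 and 0.213 in VanLip, and the 3 groups overlapped. Its interval ran from -2.02 to 0.78 on the log2 scale for VanLip against Con and was about as wide in the other comparisons, so that neither a large fall nor no change lay outside it. The coefficient of variation of its normalized counts was 38.2% in Con, 28.4% in Van and 99.8% in VanLip. Without VanLip replicate 3 it was called lower in VanLip than in Con (log2 -1.86, adjusted p = 0.0413).

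Ratios within a library compare members without any scaling between libraries. The log2 ratio of Spi1 to Cebpa was 2.61 to 2.90 in Con, 1.91 to 2.53 in Van and 3.09 to 3.30 in VanLip, and the 3 groups did not overlap. For Cebpa to Cebpb it was -3.01 to -2.76 in Con, -2.88 to -2.33 in Van and -3.59 to -3.08 in VanLip. Con and Van overlapped there, and VanLip lay below both. For Runx1 to Spi1 it was -4.05 to -3.80 in Con, -3.76 to -3.59 in Van and -4.33 to -4.04 in VanLip. Here Van stood above the others, and VanLip and Con touched at their edges. Relative to PU.1 transcripts, Cebpa was thus most abundant in Van and least abundant in VanLip.

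**Figure D3:**
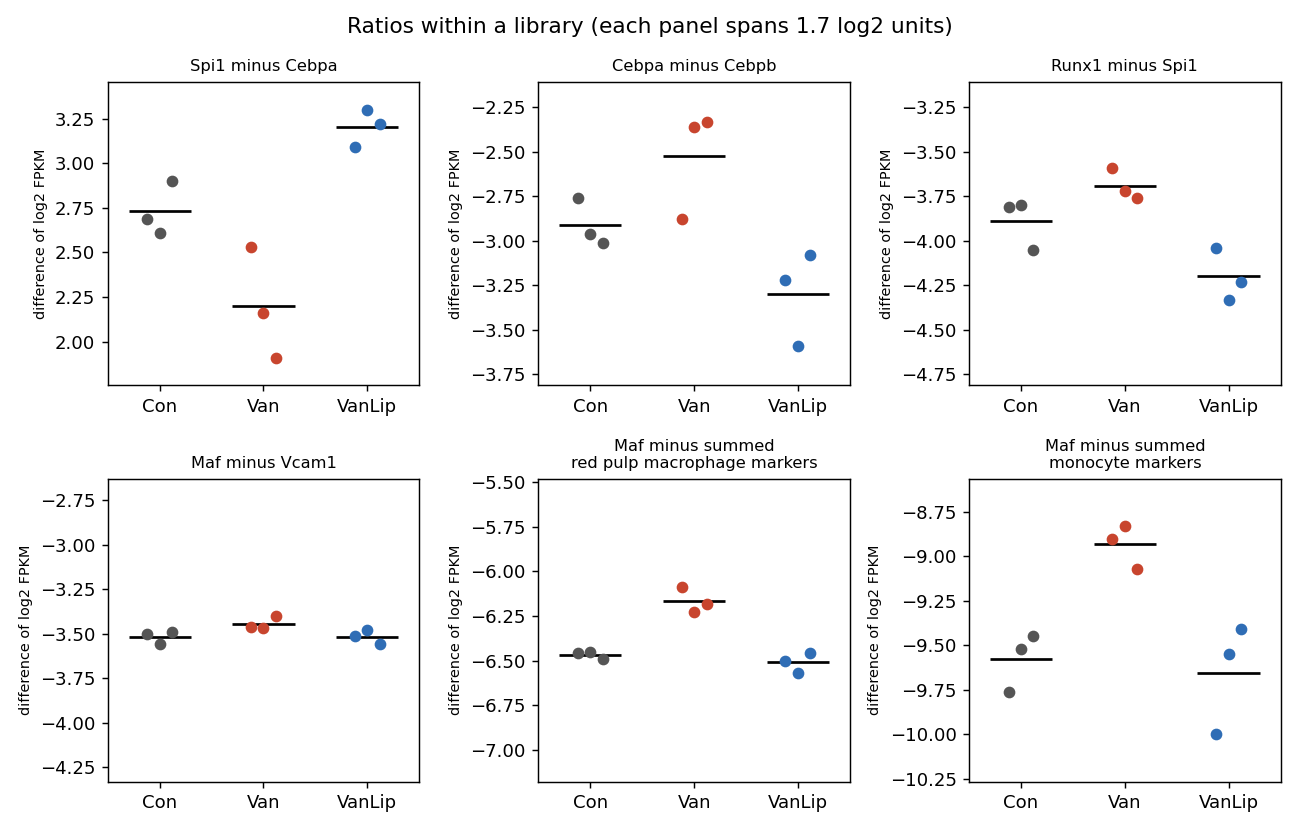
Differences of log2 FPKM within each library (vertical axis, in log2 units, each panel spanning 1.7 units), with points for libraries and lines for group means. Spi1 minus Cebpa separates the 3 groups, while Maf minus Vcam1 stays between -3.56 and -3.40 over the 9 libraries. Vcam1 was the gene nearest to Maf by profile in these libraries. The ratios of Maf to Vcam1 and to marker sums were not among those planned.

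Maf was also set beside markers of the macrophages that share the spleen with monocytes. The log2 ratio of Maf to the summed red pulp macrophage markers was -6.49 to -6.45 in Con, -6.23 to -6.09 in Van and -6.57 to -6.46 in VanLip. Maf was thus higher in Van relative to this sum as well. Hmox1 was the largest term of the sum, with a mean of 558.7 FPKM in Con, 651 in Van and 584.9 in VanLip. Of those 6 markers, Vcam1, an adhesion molecule of red pulp macrophages, was the one called: 131.8, 166.8 and 156.3 FPKM in Con, 189.4, 238.1 and 201.2 in Van, and 129.9, 146.0 and 173.1 in VanLip. Its log2 value was 0.46 for Van against Con (adjusted p = 0.0106) and -0.50 for VanLip against Van (adjusted p = 0.00176) with DESeq2. With edgeR 0 of the 6 markers were called in the first comparison and 1 in the second. The ratio of Maf to Vcam1 stayed within -3.56 and -3.40 in all libraries. Vcam1 was also the gene nearest to Maf by profile in these same libraries, so a steady ratio follows from that likeness. The part of macrophages in the Maf result was not tested.

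Of the 10 monocyte markers 1 was called lower in Van than in Con. This was Ccr2, the chemokine receptor of Ly6C-high monocytes, at 173, 163 and 159 FPKM in Con, 70.4, 93.0 and 98.2 in Van, and 256, 156 and 190 in VanLip. It was called lower in Van than Con (log2 -0.83, adjusted p = 0.00048) and higher in VanLip than Van (log2 1.04, adjusted p = 7.38e-07) with DESeq2. Ly6c2 and Cx3cr1 were called higher in VanLip than Van as well, at log2 0.39 and 0.43. The means of Itgam, Fcgr1, Lyz2 and Fn1 were also lower in Van than in both other groups, without a call. Cd14, Adgre1 and Csf1r went the other way, also without a call. Their mean FPKM were 151.3, 111.1 and 564 in Con, 185.4, 126.1 and 602.1 in Van, and 135.1, 116.6 and 564.3 in VanLip. With edgeR 0 of the 10 markers were called in the first comparison and 2 in the second. Relative to the summed monocyte markers, Cebpa was at -7.82 to -7.75 in Con, -7.31 to -7.09 in Van and -8.34 to -8.09 in VanLip. The 3 groups did not overlap on this scale, in which Lyz2 alone gave most of the sum (mean 8013 FPKM in Con, 7514 in Van and 8238 in VanLip). Relative to the summed red pulp macrophage markers, Cebpa was at -4.86 to -4.44 in Con, -4.62 to -4.20 in Van and -5.26 to -4.84 in VanLip. There Con overlapped both other groups, and VanLip lay below Van. Runx1 was at -9.01 to -8.87 in Con, -8.94 to -8.36 in Van and -9.29 to -9.12 in VanLip relative to the monocyte sum, with VanLip below both other groups. Relative to the red pulp macrophage sum it was at -6.01 to -5.57 in Con, -6.18 to -5.55 in Van and -6.27 to -5.78 in VanLip, and the groups overlapped. The part of monocyte subsets and macrophages in the Cebpa and Runx1 results was not tested.

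The genes most like each called member in their profile over the 9 libraries were found among 13503 genes by the root mean square difference of centred log2 normalized counts. For Maf, whose own root mean square deviation was 0.287, the nearest were Vcam1 at 0.0496, Slc45a3 at 0.0701 and Clec4n at 0.0886. For Cebpa, at 0.376, they were less close, namely Trim65 at 0.141, Panx1 at 0.148 and Heatr1 at 0.149. For Runx1, at 0.152, they were Crebbp at 0.0388, Kdm6a at 0.0431 and Crebrf at 0.0481. The points share libraries and depth, and with 9 libraries and this many genes such likeness is a description.

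The gene models bear on how these levels were estimated. For Cebpa the transcript length implied by count and FPKM, relative to the median gene of the library, was 1.18 in each library, and for Bcl6 it was 1.58 to 1.59, so their counts and FPKM carry the same differences. For Zeb2, with 29 annotated transcripts, it was 2.51, 3.29 and 2.89 in the Con libraries and 3.11 to 3.24 in the others, which shows that isoform estimates entered its FPKM. Cebpb overlaps Tmem189 (mean 34.1 FPKM), Cebpd overlaps Spidr (6.38), Zeb2 overlaps Zeb2os (13.3) and Runx1 overlaps Gm26626 (0.295), each on the opposite strand, and Maf overlaps Gm15655 (0.0549). Cebpa overlaps the antisense gene Gm45091, for which the tables had no row. The libraries were made with a stranded kit, and whether strand was used in the estimates was not stated.

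A further 30 regulators of the myeloid programme, most of them transcription factors, were taken as a list to place the members. For Van against Con 3 of 30 were called with DESeq2 (edgeR 1), beside 4.33% of all genes. Cebpg, a C/EBP relative lacking an activation domain, at log2 0.34 (adjusted p = 0.00512) and Id2, an inhibitor of E proteins, at 0.35 (adjusted p = 0.0409) were higher, and Zeb1, the paralog of Zeb2, was lower at -0.59 (adjusted p = 0.000356). The call on Id2 was kept in 10 of 20 alternatives, and was lost with edgeR (adjusted p = 0.141), limma or no independent filtering and without any one of the Con replicates or Van replicate 1 or 3 (adjusted p up to 0.3 over all alternatives). The median log2 value over the 30 was 0.03. For VanLip against Con 4 were called, all lower, beside 6.67% of all genes (edgeR 1, median -0.10). For VanLip against Van 8 were called, 2 higher and 6 lower, beside 9.85% of all genes (edgeR 4, median -0.11).

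Egr1, an immediate early gene, was 1 of the 4 lower in VanLip than in Con (log2 -0.59, adjusted p = 0.0232). Its groups overlapped, at 35.6, 66.1 and 52.0 FPKM in Con and 39.8, 31.5 and 32.6 in VanLip, and its call was kept in 10 of 20 alternatives (edgeR adjusted p = 0.152). It was lost without Con replicate 2 or 3 or any one of the VanLip replicates, and with each limma setting. A replicate block lost it too, with the highest adjusted p over all alternatives (0.435). Trib1, a pseudokinase that directs C/EBPα protein to degradation, was lower in VanLip than in Van (log2 -0.47, adjusted p = 0.00859, edgeR 0.0727). It was at 123.9, 97.1 and 83.8 FPKM in Van and 75.7, 70.9 and 76.0 in VanLip, and its call was kept in 14 of 20 alternatives, being lost without Van replicate 1 or VanLip replicate 2 (adjusted p up to 0.177 over all alternatives). Id2 was lower in VanLip than in Van too (log2 -0.36, adjusted p = 0.0195, edgeR 0.0838), in 13 of 20 alternatives, with the call lost without Van replicate 1 or VanLip replicate 2 or 3 (adjusted p up to 0.159).

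Cebpg was at 14.8, 17.0 and 15.9 FPKM in Con, 19.0, 20.0 and 21.3 in Van and 12.2, 12.7 and 14.0 in VanLip. Its 3 groups did not overlap and stood in the same order as those of Cebpa. The log2 value was -0.64 for VanLip against Van (adjusted p = 2.13e-11), called in each of 20 alternatives. For VanLip against Con it was -0.30 (adjusted p = 0.013, edgeR 0.0951), and this call and that for Van against Con (edgeR 0.0723) were each kept in 13 of 20 alternatives. Those lost included 3 left-out libraries in each: Con replicates 1 and 3 and Van replicate 3 for Van against Con, and Con replicate 2 and VanLip replicates 1 and 2 for VanLip against Con, with adjusted p up to 0.209 and 0.164. Irf8, which directs monocyte and dendritic cell fate against the neutrophil fate, was at 80.1, 86.4 and 77.9 FPKM in Van and 123, 101 and 103 in VanLip, a log2 value of 0.42 (adjusted p = 0.000604). The VanLip libraries were above all others for this gene.

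Prdm1, which encodes the repressor Blimp-1, was at 10.5, 7.09 and 6.53 FPKM in Con, 8.01, 8.22 and 8.56 in Van, and 4.55, 4.83 and 3.82 in VanLip. It was lower in VanLip against both Con (log2 -0.92, adjusted p = 6.06e-06) and Van (log2 -0.92, adjusted p = 3.21e-06). Runx3, a paralog of Runx1, was also lower in VanLip against both, at log2 -0.52 (adjusted p = 0.00223 and 0.00151), with the 3 VanLip libraries at 14.1 to 17.5 FPKM and the other 6 at 18.8 to 26.2. Its call against Con was lost with edgeR (adjusted p = 0.0671) and limma, and that against Van with limma. The calls on Zeb1 and Irf8 were lost with each limma setting and those on Prdm1 with limma at both pseudocounts. Runx1 itself was called lower against Van and not against Con, as given above.

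**Figure D4:**
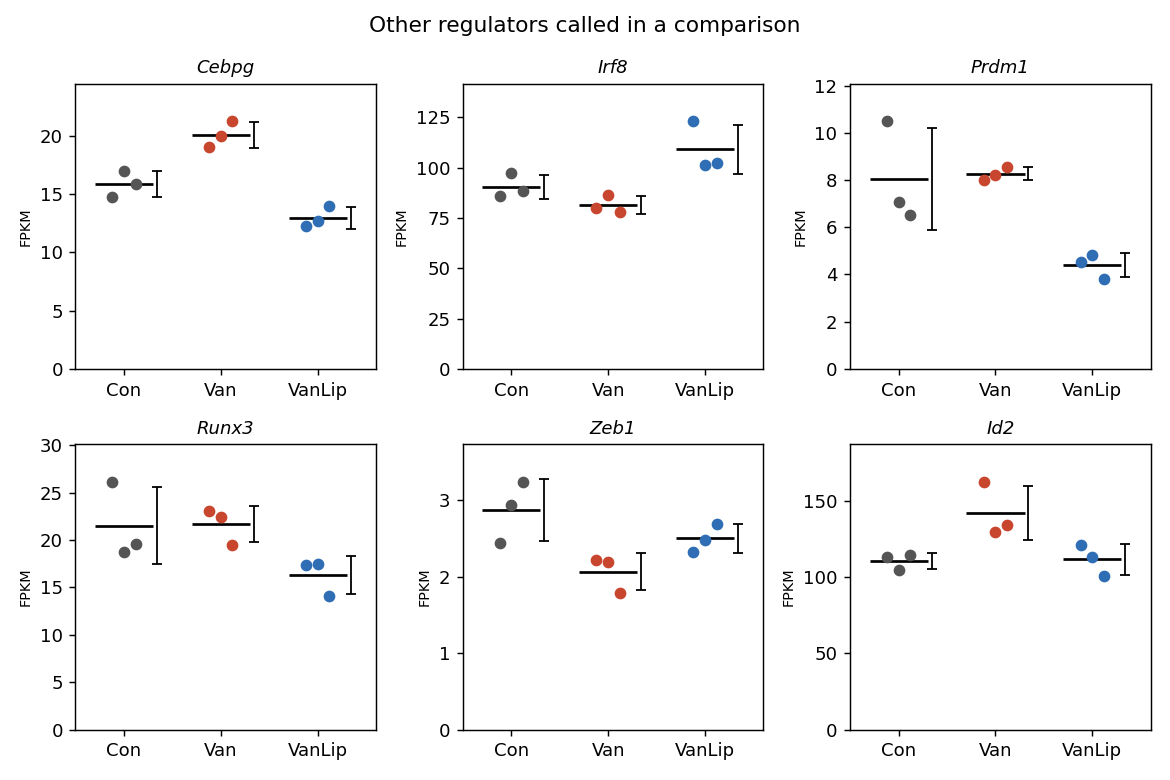
FPKM (vertical axis, from 0) of 6 other regulators called in at least 1 comparison, with points for libraries, lines for group means and bars for the SD (n = 3). Cebpg is highest in Van, at 19.0 to 21.3, and lowest in VanLip, at 12.2 to 14.0, and Prdm1 is lowest in VanLip, at 3.82 to 4.83.

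Genes described as targets of PU.1 and C/EBP factors were followed as a list of 23, which shares 5 genes with the monocyte markers and 4 with the granulocyte progenitor markers. For Van against Con 1 was called, Csf3r, the receptor for G-CSF and a C/EBPα target, higher at log2 0.22 (adjusted p = 0.0475). For VanLip against Con 0 of 23 were called with DESeq2, edgeR or limma, with 1 at an unadjusted p under 0.05. For VanLip against Van 1 was called, Fes, a myeloid tyrosine kinase, higher at log2 0.23 (adjusted p = 0.0405). These counts of 1, 0 and 1 of 23 stand beside the 4.33%, 6.67% and 9.85% of all genes given above. With edgeR 0 of 23 were called in each comparison, the call on Csf3r was kept in 6 of 20 alternatives and that on Fes in 5 of 20. The median log2 values over the list were -0.04, -0.01 and 0.08, against -0.01, 0.01 and 0.01 over all genes.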

How the data were processed

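RNA was sequenced from splenic monocytes of 9 mice, grouped by sample title. Per the labels and the study's methods, the authors aligned paired reads from a stranded kit to GRCm38 with HISAT2 2.2.1, estimated FPKM with StringTie 2.1.3, and deposited per gene FPKM values and expected counts made with tximport, and left unscaled. The release of the annotation was not given in the sources used here. GENCODE M21 matched 25836 of 26108 detected genes.

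Expected counts were rounded and tested in R 4.3.3 with DESeq2 1.42.0 (Wald test, median-of-ratios size factors, 9 libraries in 1 fit, default independent filtering, Benjamini-Hochberg adjustment over all genes tested), two-sided. Intervals are 95% and cover the model's error. The fit was also run on simulated counts. These held neither the larger read size of VanLip nor a trend with GC content, so those limits were not covered. Alternatives were edgeR 4.0.16 (quasi-likelihood), TMM library sizes, at least 10 counts in 3 libraries, no independent filtering, the 2 groups alone, a replicate block, counts divided by the size of 1 read, limma 3.58.1 on quantile-normalized log2 (FPKM + 1), log2 (FPKM + 0.1) or genes of mean FPKM of at least 1, and each library left out. A correction for GC content and transcript length was chosen after seeing the data. The ratios of members to marker sums and of Maf to Vcam1 were not among those planned either. Named genes were the 9 members, up to 6 called genes per list and comparison, and the 3 profiles nearest each called member. Monocyte markers were named too, as were the called and the highest red pulp macrophage marker. Other marker lists are given as counts. The members and lists were chosen with earlier results of these data known. Each library was 1 mouse.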

Additional observations from a re-analysis of the deposited data

How the results depend on the processing

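Of the calls on single members, those on Cebpa, Maf and Runx1 in VanLip against Van were the most stable, and Cebpa in VanLip against Con the least. The depth and the size of 1 read of the VanLip libraries limit every comparison with VanLip, and 3 mice a group limit all.

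The number of members called for Van against Con fell from 2 to 0 with edgeR and with each limma setting, and was 1 to 2 when a library was left out. For VanLip against Con it fell from 1 to 0 with edgeR, TMM, the replicate block and each limma setting (0 to 2 with a library left out). For VanLip against Van it fell from 3 to 1 with limma at both pseudocounts. Over all genes, the 803 called for Van against Con became 204 with edgeR, and 92, 17 and 90 with limma at pseudocounts of 1 and 0.1 and at a mean FPKM of at least 1 (425 to 913 with a library left out). The 1105 for VanLip against Con became 300, 237, 168 and 339 in that order (606 to 1276), and the 1777 for VanLip against Van became 855, 688, 516 and 829 (1142 to 1666).

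With limma at a pseudocount of 1, which changes the test, unit and scaling together, Van against Con had 70 of 92 called genes higher (421 of 803 with DESeq2) and VanLip against Con 130 of 237 (494 of 1105). With TMM alone 418 of 797 were higher for Van against Con.

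Of the 30 other regulators, the 3 called for Van against Con became 1 with edgeR, 6 with the 2 groups alone and 0 with each limma setting (1 to 4 with a library left out). The 4 for VanLip against Con became 1 with edgeR and 0, 0 and 1 with limma (2 to 4). The 8 for VanLip against Van became 4 with edgeR and 1, 1 and 2 with limma (5 to 9). The 1 target called for Van against Con became 5 with the 2 groups alone and 0 with edgeR, limma, the replicate block, the GC and length correction or no independent filtering (0 to 3 with a library left out). The 0 for VanLip against Con became 0 to 1, and the 1 for VanLip against Van became 2 with TMM and 0 with edgeR, limma, the replicate block, the 2 groups alone or no independent filtering (0 to 3).

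Directions turned only for values that were not called. With the GC and length correction, the Van against Con value of Cebpb was -0.078, and the VanLip against Con values were -0.25 for Cebpb and 0.039 for Maf. With limma, Zeb2 for VanLip against Van was -0.011 at a pseudocount of 1 and over genes of mean FPKM of at least 1, and -0.012 at 0.1. Bcl6 for Van against Con was -0.012 in each limma setting. With a library left out, Van against Con ranged from -0.053 to 0.024 for Spi1 and from -0.071 to 0.078 for Bcl6. VanLip against Con ranged from -0.15 to 0.16 for Cebpb, from -0.13 to 0.056 for Maf and from -0.17 to 0.0029 for Zeb2. VanLip against Van ranged from -0.24 to 0.068 for Cebpb, from -0.25 to 0.10 for Cebpd, from -0.096 to 0.077 for Zeb2 and from -1.29 to 0.33 for Gfi1. The cause was not tested.

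Replicate numbers did not pair the samples: deviations of same-numbered libraries correlated at -0.065 to 0.12 over 9 pairs, and 1 of 9 libraries correlated best with its own number. With the replicate block, the calls were 2 members and 932 genes in Van against Con, 0 and 1146 in VanLip against Con, and 3 and 1644 in VanLip against Van.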
